A study of Tigriopus californicus with 9 samples.

Results

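A pair of contigs of the copepod Tigriopus californicus is described, 2 of the 13758 features measured by polyA RNA sequencing in 9 libraries. The first, SD_As4_Contig4724 (Contig4724 below), was deposited as pyridine nucleotide-disulfide oxidoreductase domain-containing protein 2 and paired by the authors with SCN_Contig_5156. The other, SD_As4_Contig1785 (Contig1785 below), was deposited as ubiquitin and paired with SCN_C3_Contig6543_2. They were chosen because, among contigs with a protein name, they stood out most clearly as lower in San Diego (SD) than in Santa Cruz (SCN) animals. The difference between those populations is therefore given as a description with no test. Neither cross of hybrids entered the choice, although every comparison of hybrids with the parents reuses the parental libraries.

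The SD group held 3 libraries and the SCN group held 2. Hybrids with SD mothers and SCN fathers (SDf x SCNm) had 2 libraries, and hybrids of the reciprocal cross (SCNf x SDm) had 2. Virgin females of one population had been mated with males of the other, and the offspring had been intercrossed to generation 3. Each library came from a pool of 400 to 500 whole animals of every stage, held at 20 °C for 2 h before lysis, so that fewer cells of a type and less RNA per cell cannot be told apart. The pools were drawn from cultures, and nothing states that replicates came from separate cultures, so the spread between libraries may be technical. For the SCNf x SDm libraries the source label gives the reverse of the cross in the title, and the title was followed. SD replicate 1 and SCN replicate 1 were sequenced in run 1, SD replicate 2 in run 2, SD replicate 3 and SCN replicate 2 in run 3, SDf x SCNm replicate 1 in run 4, and the remaining 3 hybrid libraries in run 5. No run held both parents and hybrids, so run and hybrid origin cannot be told apart.

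Pyridine nucleotide-disulfide oxidoreductases are flavoproteins that pass electrons between NAD(P)H and a partner such as a disulfide. The family includes glutathione reductase, thioredoxin reductase and dihydrolipoamide dehydrogenase, and the human protein that carries the name of Contig4724 is located in mitochondria. Ubiquitin is a small protein that is attached to other proteins through the successive action of E1, E2 and E3 enzymes and removed by deubiquitinating enzymes, and chains of it send proteins to the proteasome. Animals encode ubiquitin both as head-to-tail repeats and as fusions with ribosomal proteins.

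Levels are given in RPKM as deposited, read counts scaled to contig length and library size. The spacing of the values within each library gave back the whole reads behind them and the length of each contig, which was 672 bases for Contig4724 and 108 bases for Contig1785. Of the features with a recovered length, 1.26% were no longer than Contig1785, and the median was 840 bases. Every feature also carries an added constant, worth between 1.12 and 18.4 reads in different libraries. That constant is worth 1.14 to 1.66 RPKM for Contig4724 and 7.10 to 10.3 RPKM for Contig1785. Intervals on reads below are exact Poisson intervals at 95% and cover counting error only.

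Contig4724 was in the lower part of the range of features in SD animals and near its upper end in every other group. In SD it was at 9.24 RPKM in replicate 1 (90 reads), 18.1 RPKM in replicate 2 (61 reads) and 10.5 RPKM in replicate 3, where only 6 reads were behind the value (interval 2.2 to 13.1 reads). In SCN it was at 310.1 RPKM in replicate 1 (848 reads) and 532 RPKM in replicate 2 (625 reads). The lowest SCN library was 17.1 times the highest SD library, so the populations did not overlap. The means were 12.6 ± 4.79 RPKM (standard deviation, n = 3) for the San Diego group and 421 ± 157 RPKM (n = 2) for SCN, a ratio of 33.3. With the added constant taken off, the means were 11.1 ± 4.85 and 419 ± 157 RPKM and the ratio was 37.9. Between 21.8% and 43.4% of features were lower than Contig4724 in the SD libraries, against 96.3% and 97.3% in the SCN libraries.

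The ubiquitin contig, Contig1785, had the same order of populations at a higher level. In SD it was at 48.0 RPKM in replicate 1 (72 reads), 44.9 RPKM in replicate 2 (21 reads) and 74.8 RPKM in replicate 3 (7 reads, interval 2.81 to 14.4). In SCN it was at 902 RPKM in replicate 1 (394 reads) and 641 RPKM in replicate 2 (120 reads). The lowest SCN library was 8.57 times the highest SD library. The means were 55.9 ± 16.4 RPKM (n = 3) in SD and 771 ± 184 RPKM (n = 2) in SCN, a ratio of 13.8, which was 16.5 with the constant taken off. From 67.9% to 80.1% of features were lower than this contig in the SD libraries, and 97.7% and 98.5% were lower in SCN.

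Both populations were present in run 1 and in run 3, and the difference had the same direction in each. For Contig4724, SD minus SCN on the log2(RPKM + 1) scale was -4.92 within run 1, -5.53 within run 3 and -4.95 over all libraries. For Contig1785 it was -4.20 within run 1, -3.08 within run 3 and -3.78 over all libraries. The run 3 libraries were the shallowest, with 0.751 and 1.15 M reads (M, mega) recovered against 2.91 to 13.6 M in the others. Without both run 3 libraries the differences were -4.47 for Contig4724 and -4.25 for Contig1785. By limma with Benjamini-Hochberg adjustment over all features, 59 features (0.429%) passed an adjusted p of 0.05 between the populations, of which 35 (0.254%) were lower in SD and 24 (0.174%) higher. With median-of-ratios scaling 57 were lower and 17 higher, and with quantile normalization 66 and 29. That background rested on single libraries, with 3085 calls without SCN replicate 1 and 11 to 22 without any 1 SD or hybrid library. SD libraries lay below both SCN libraries without overlap in 9.17% of features, and below all SCN and hybrid libraries in 4.85%. The contigs were picked by this contrast, and nothing is read from those shares about them.

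The contigs with an informative name that came next in the same order had smaller differences. Contig2534, named after the zinc metalloproteinase nas-13, had a mean of 17.0 RPKM in SD and 74.3 RPKM in SCN, a log2 difference of -2.07. Contig24202, named after the exosome component mtr3, had means of 31.3 and 162 RPKM, a log2 difference of -2.31. Contig23597, named as retrotransposon-like, had 2.92 RPKM in SD and 29.8 RPKM in SCN, a log2 difference of -2.98. The order is that of the limma p for SD minus SCN among contigs lower in SD. These values stand just outside the choice and, being picked by that p, are given as a description only.

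**Figure D1:**
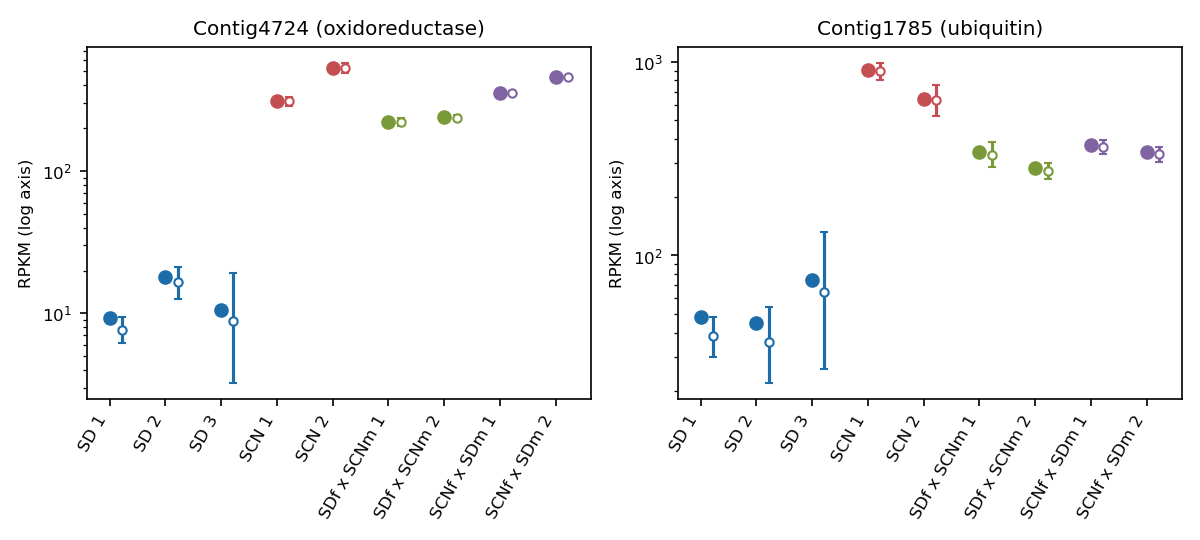
RPKM (log axis) of Contig4724 and Contig1785 in each of the 9 libraries, by group. Filled points are RPKM as deposited, and the smaller open points beside them are RPKM with the added constant taken off. Bars on the open points are exact Poisson 95% intervals of the reads, covering counting error only. In both panels the 3 SD libraries lie below all 6 others. For Contig4724 the SDf x SCNm libraries lie between the populations and the SCNf x SDm libraries within the range of SCN. For Contig1785 all hybrid libraries lie between the populations.

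Hybrids carried Contig4724 at levels far above SD in both directions of the cross. SDf x SCNm hybrids were at 223 RPKM in replicate 1 (747 reads) and 238 RPKM in replicate 2 (2459 reads), a mean of 230.3 ± 10.9 RPKM (n = 2). SCNf x SDm hybrids were at 355 RPKM in replicate 1 (3407 reads) and 455 RPKM in replicate 2 (4090 reads), a mean of 405 ± 70.9 RPKM (n = 2). The lowest hybrid library was 12.3 times the highest SD library. Both SDf x SCNm libraries lay below both SCN libraries, whereas the SCNf x SDm libraries lay within the range of SCN. The order of means was thus SD, SDf x SCNm, SCNf x SDm and SCN, and the last pair did not differ beyond their spread. The mean of the 4 hybrid libraries, 318 ± 109 RPKM, was 25.2 times the SD mean and 0.755 times the SCN mean.

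Hybrids carried the ubiquitin contig at levels between the populations. Contig1785 was at 341 RPKM in replicate 1 (180 reads) and 283 RPKM in replicate 2 (456 reads) of SDf x SCNm, a mean of 312 ± 41.3 RPKM (n = 2). In SCNf x SDm it was at 373.5 RPKM in replicate 1 (563 reads) and 341 RPKM in replicate 2 (481 reads), a mean of 357 ± 22.8 RPKM (n = 2). Every hybrid library was at least 3.78 times the highest SD library, and every one was below the lowest SCN library. Such a placement of all 4 hybrid libraries above SD and below SCN held for 84 features (0.611%) and did not hold for Contig4724. It requires SD below SCN without overlap (1262 features, 9.17%), and Contig1785 was chosen as lower in SD. The share of 0.611% is therefore not read as a result about Contig1785. The order of means was SD, SDf x SCNm, SCNf x SDm and SCN, and the crosses did not differ beyond their spread. The hybrid mean, 335 ± 37.8 RPKM, was 5.99 times the SD mean and 0.434 times the SCN mean.

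Placing each hybrid library on the way from the SD mean to the SCN mean set the contigs apart. On the log2 scale, SDf x SCNm libraries were at 82.6% and 84.5% of the way for Contig4724, and SCNf x SDm libraries at 96.1% and 103%. For Contig1785 the same positions were 69.5% and 62.3% in SDf x SCNm and 72.9% and 69.5% in SCNf x SDm. On the RPKM scale, SDf x SCNm libraries were at 51.5% and 55.2% for Contig4724 and SCNf x SDm libraries at 83.9% and 108%. The ubiquitin contig lay nearer to SD on that scale, at 39.9% and 31.7% in SDf x SCNm and at 44.4% and 39.9% in SCNf x SDm.

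Hybrids were set against a midparent, here the average of both parental group means in log2(RPKM + 1), in a limma fit of all 9 libraries. Contig4724 was higher in hybrids than the midparent by a log2 difference of 2.06 (SE 0.29, interval 1.42 to 2.71), a 4.18-fold excess over a midparent of 72.1 RPKM, with a limma adjusted p of 0.0237. The parental libraries in this midparent also served the choice of both contigs. The excess over it and its adjusted p are therefore not independent of that choice, for either contig. In the same comparison 110 features (0.8%) passed the threshold, 109 higher (0.792%) and 1 lower. That count rose to 2985 when SCN replicate 1 was left out and was 43 when SCN replicate 2 was. Dropping SD replicate 1 left 0 and SD replicate 3 left 33, dropping a library of SDf x SCNm left 3 or 4, and dropping either library of SCNf x SDm left 0. The call rested on single libraries: with SD replicate 1, SD replicate 3 or any 1 of the 4 hybrid libraries left out, the limma adjusted p lay between 0.0507 and 0.170, while the log2 difference stayed between 1.97 and 2.15. By cross, the excess was 1.66 (SE 0.36, limma adjusted p = 0.219) in SDf x SCNm, where 0 features passed and 1127 (8.19%) had an unadjusted p under 0.05. It was 2.46 (SE 0.36, limma adjusted p = 0.0520) in SCNf x SDm, where 1 feature (0.00727%) passed and 12.7% of features had an unadjusted p under 0.05. Without SCN replicate 1 both crosses passed for this contig, at 1.47 (limma adjusted p = 0.0368) and 2.27 (limma adjusted p = 0.00834), and 905 and 1981 features passed.

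The ubiquitin contig did not pass this test. Its hybrids exceeded the log2 midparent of 204 RPKM by 0.70 (SE 0.27, interval 0.11 to 1.29), with a limma adjusted p of 0.229. Without SCN replicate 1 it passed, at 0.82 (limma adjusted p = 0.0465), with 2985 features called. By cross the values were 0.60 (limma adjusted p = 0.707) in SDf x SCNm and 0.80 (limma adjusted p = 0.354) in SCNf x SDm. The median over all features was 0.15 for hybrids minus midparent.

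The scale of the midparent decided the size of these values. A mean of the RPKM values gave a midparent of 217 RPKM for Contig4724, and SDf x SCNm hybrids were at 1.06 times and SCNf x SDm hybrids at 1.87 times that level. Against it the log2 difference for all hybrids was 0.49 with a limma adjusted p of 0.167. For Contig1785 the RPKM mean was 414, SDf x SCNm hybrids were at 0.754 times and SCNf x SDm hybrids at 0.864 times that level, and the log2 difference turned to -0.31 (limma adjusted p = 0.323). The error of the midparent itself was left out of this version of the test, because the midparent was treated as fixed. The spread within the parental groups still entered the variance of the fit.

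**Figure D2:**
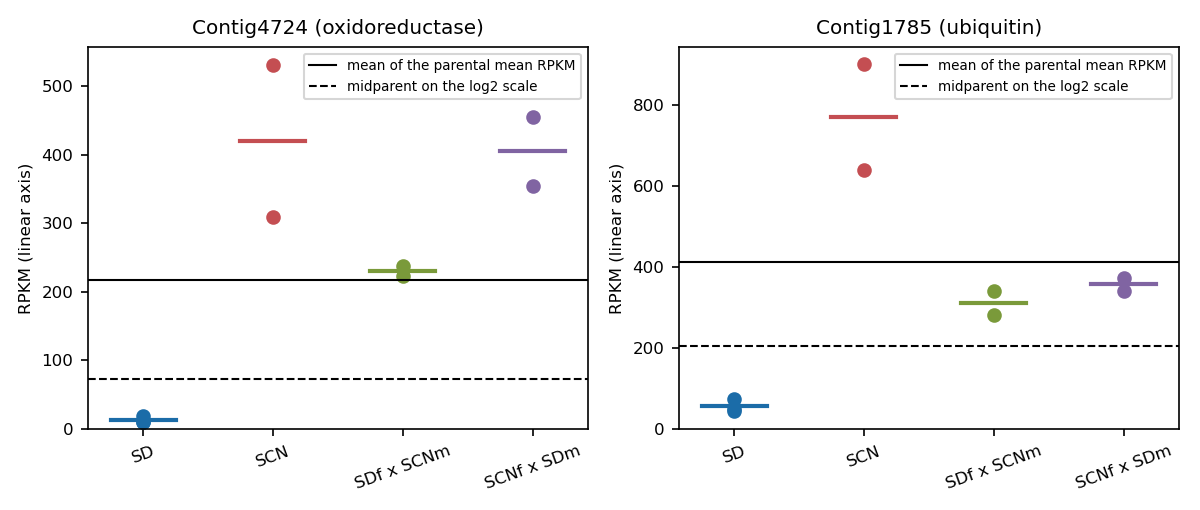
RPKM (linear axis from 0) of Contig4724 and Contig1785 in each parental and hybrid library, with short bars at group means and full-width lines at the midparent taken as a mean of RPKM values and as a mean on the log2 scale. For Contig4724 the SDf x SCNm libraries lie close to the RPKM midparent of 217 and the SCNf x SDm libraries above it, while for Contig1785 all 4 hybrid libraries lie below the RPKM midparent of 414 and above the log2 midparent of 204.

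The reciprocal crosses were compared directly, a contrast whose estimates use no library that served the choice of the contigs. Its SE, intervals and p-values by limma rest on the spread within all 9 libraries, the parental ones included. Contig4724 was 1.76 times as high on average with SCN mothers as with SD mothers, and the groups of 2 did not overlap. SDf x SCNm minus SCNf x SDm was -0.80 on the log2 scale (SE 0.43, interval -1.75 to 0.15), with an unadjusted p of 0.0898 and an adjusted p of 1.00 by limma. For Contig1785 the ratio of means was 1.15, and the log2 difference was -0.20 (SE 0.39, interval -1.07 to 0.67), with an adjusted p of 1.00 by limma. The percentage of features past the threshold in this comparison was 0% by limma, and 39 features (0.283%) had an unadjusted p under 0.05. SDf x SCNm libraries lay below SCNf x SDm libraries without overlap in 12.5% of features. Within run 5, which holds 1 library of SDf x SCNm and both of SCNf x SDm, the differences were -0.75 for Contig4724 and -0.34 for Contig1785.

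Other contigs with related names were examined next. A further contig, Contig11947, carries the same deposited name as Contig4724 and was 1755 bases long. Its level was 37.4, 21.3 and 39.2 RPKM in the SD libraries and 15.2 and 7.59 RPKM in the SCN libraries, and 19.1 to 23.6 RPKM in the hybrids. It was thus higher in SD in every library, with means of 32.6 ± 9.82 RPKM (n = 3) and 11.4 ± 5.40 RPKM (n = 2), but SD minus SCN, 1.46 on the log2 scale (SE 0.41, interval 0.55 to 2.38), did not pass (limma adjusted p = 0.144). Its hybrids were 0.20 from the log2 midparent (limma adjusted p = 0.785), and SDf x SCNm minus SCNf x SDm was -0.03. The ratio of Contig4724 to Contig11947 was 0.247, 0.849 and 0.269 for SD, 20.4 and 70.1 for SCN, and 9.43 to 19.9 for hybrids. The summed RPKM of both contigs was 39.5 to 49.7 for SD, 325 and 539 for SCN, and 246 to 478 for hybrids, so the order of groups was kept in the sum. The sources used here do not say whether the contigs are copies, alleles or pieces of 1 gene, or how reads that match both were counted.

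Beside the 108-base contig, 1 other feature codes for ubiquitin by its name. Contig47684 (474 bases) was deposited as RpS27A-ubq, a fusion of ubiquitin with a ribosomal protein. It was at 1687, 1667 and 2015 RPKM in SD and at 2018 and 2118 RPKM in SCN. Its means, 1790 ± 196 RPKM (n = 3) and 2068 ± 70.7 RPKM (n = 2), differed by -0.21 on the log2 scale (interval -1.14 to 0.72, limma adjusted p = 0.820). Hybrids were at 3231 and 3845 RPKM in SDf x SCNm and at 2840 and 4032 RPKM in SCNf x SDm. Its hybrids exceeded the log2 midparent by 0.85 (interval 0.16 to 1.54, limma adjusted p = 0.214), against a median of 0.15 over all features. The ubiquitin part of this contig could share reads with Contig1785, and their counts are uncertain to that extent.

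**Figure D3:**
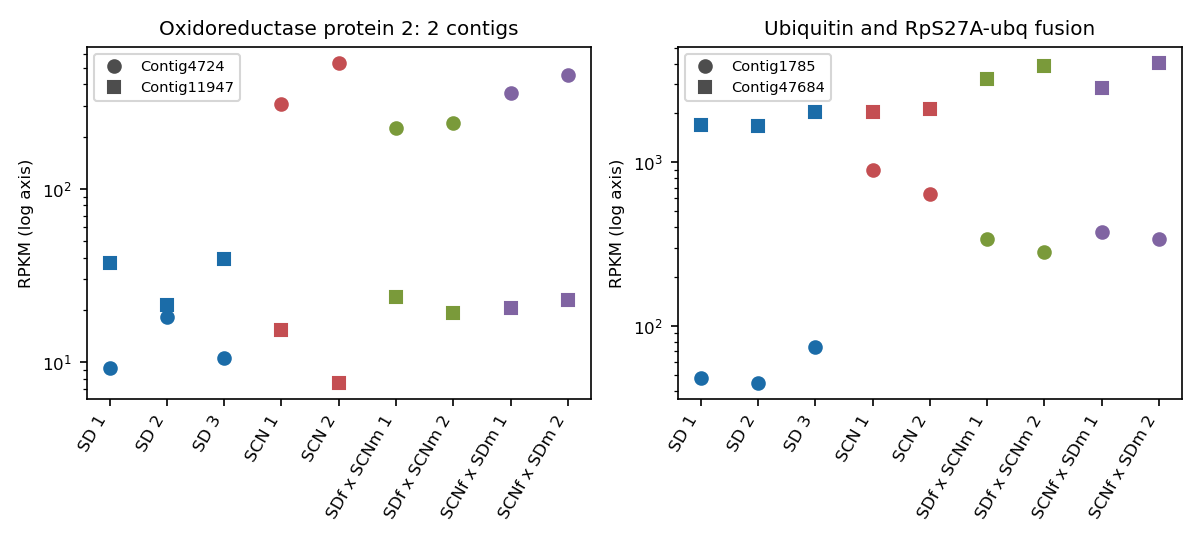
RPKM (log axis) per library of Contig4724 beside Contig11947, which has the same deposited name, and of Contig1785 beside Contig47684, the ubiquitin fusion; points are libraries, coloured by group and numbered by replicate. Contig11947 is higher in all 3 SD libraries than in both SCN libraries, the reverse of Contig4724, and Contig47684 spans 1667 to 4032 RPKM over all libraries while Contig1785 spans 44.9 to 902 RPKM.

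The oxidoreductases and their kin formed a list of 12 contigs, Contig4724 included. SD minus SCN was below 0 in 11 of 12 and the median was -0.52, against 0.23 over all features. Contig4724 is counted in both values, and that contrast chose it, so no call of it is read there. In hybrids minus midparent Contig4724 was the only member past the limma threshold, which 0.8% of all features passed. The list's median there was -0.32, against 0.15 over all features. Of its members, 4 were above 0 and 8 below, and 3 were above the median over all features. The nearest to Contig4724 in SD minus SCN was Contig439, named after sulfide:quinone oxidoreductase, which oxidises hydrogen sulfide in mitochondria. It was at 159, 236 and 249.8 RPKM in SD, at 407 and 1111 RPKM in SCN and at 255 to 296 RPKM in hybrids, a log2 difference between the populations of -1.67 (interval -2.66 to -0.67, limma adjusted p = 0.132). Dihydrolipoamide dehydrogenase (Contig1009), a subunit of the pyruvate and oxoglutarate dehydrogenase complexes, was at -1.07 (limma adjusted p = 0.272). Glutathione reductase (Contig14429), which regenerates reduced glutathione, was at -0.86, and thioredoxin reductase (Contig6687), which reduces thioredoxin, was at -0.57. The NADPH-dependent reductase of adrenodoxin (Contig12704), which feeds electrons to mitochondrial cytochrome P450 enzymes, was at -0.60. Apoptosis-inducing factor (Contig11474) was at -0.47 and its relative (Contig1727cap) at -0.06. The PYROXD1-like contig (Contig25588) was at -0.20, an amine oxidase (Contig15949) at -0.04 and a monoamine oxidase (Contig8534), which oxidises amines such as dopamine, at -0.29. None of these 10 passed, against 0.429% of all features past the threshold in SD minus SCN. Between the crosses, 8 of the 12 were above 0 and 4 below, with a median of 0.15 against 0.05 over all features. None passed there, nor did any of all features (0%).

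**Figure D4:**
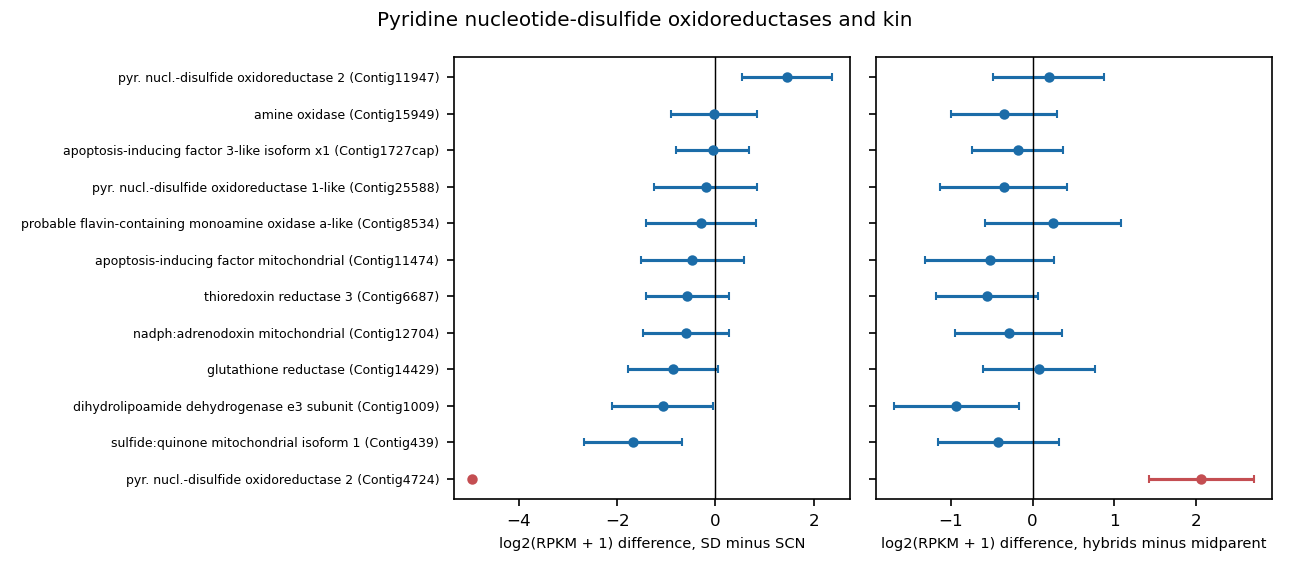
Log2 differences of the 12 oxidoreductase-list contigs on the log2(RPKM + 1) scale, for SD minus SCN and for hybrids minus midparent; points are limma estimates and bars are 95% intervals, with no bar for Contig4724 in SD minus SCN because that contrast chose it. Contig4724, at -4.95 and 2.06, lies apart from the other 11, among which Contig11947 is the one above 0 in SD minus SCN.

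Among genes that attach ubiquitin, list medians of SD minus SCN lay above 0, as did the median over all features (0.23). The sign of Contig1785 was fixed by its choice and is not set against theirs. Of these genes, 0 passed the limma threshold in any comparison. Over all features the share past it was 0.429% in SD minus SCN, 0.8% in hybrids minus midparent and 0% between the crosses, so that 0 calls in lists of this size is near the background. Both E1 enzymes, which activate ubiquitin, were above 0 in SD minus SCN, Contig894 at 0.58 and Contig33420 at 0.19. Only Contig894 was above the median over all features. All 14 E2 enzymes, which carry activated ubiquitin, were above 0. Of them, 12 were above the median over all features (10 under median-of-ratios scaling and 13 under quantile normalization). Their median was 0.53 against 0.23 over all features. They ranged from 0.06 in Contig7627 to 1.35 in Contig529 (limma adjusted p = 0.169). Of 75 E3 ligases, which pick the target protein, 64 were above 0 and 11 below, with a median of 0.71. Of the same 75, 56 were above the median over all features. The range ran from -1.58 in the sinat3-named Contig37154 (limma adjusted p = 0.302) to 2.00 in the siah1-named Contig1903 (limma adjusted p = 0.0612), which was the 1 E3 ligase to pass, as higher in SD, under quantile normalization. In hybrids minus midparent the E3 median was -0.20, against 0.15 over all features. The E3 values ran from -1.26 in the march6-named Contig9549 (limma adjusted p = 0.123) to 2.43 in Contig37154 (limma adjusted p = 0.0794).

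The remaining lists of the pathway also held 0 contigs past the limma threshold in any comparison, again near the background of 0.429% in SD minus SCN, 0.8% in hybrids minus midparent and 0% between the crosses. Of 35 deubiquitinating enzymes, which take ubiquitin off, 33 were above 0 in SD minus SCN and 28 above the median over all features. Their median was 0.70. They ranged from -0.78 in the otu1-like Contig17201 to 1.32 in the USP48-named Contig23754 (limma adjusted p = 0.165). Of 27 proteasome subunits, which degrade tagged proteins, 18 were above 0 and 9 below, and 13 were above the median over all features. Their median was 0.19. They ran from -1.60 in the alpha type-3-like Contig15729 (limma adjusted p = 0.347) to 1.09 in Contig2627 (limma adjusted p = 0.152). The 3 ubiquitin-like modifiers had a median of -0.13, and the largest hybrid excess among them was 1.51 in Contig12431, named UFM1 (limma adjusted p = 0.145). Median-of-ratios scaling moved the median of SD minus SCN over all features from 0.23 to -0.02. Under it the list medians were 0.25 for E2, 0.44 for E3, 0.42 for deubiquitinating enzymes and -0.10 for the proteasome, which changed sign. Under quantile normalization they were 0.27 for E2, 0.44 for E3, 0.50 for deubiquitinating enzymes and 0.21 for the proteasome, against 0.03 over all features. Between the crosses, medians were 0.16 for E2, 0.21 for E3, 0.18 for deubiquitinating enzymes and 0.26 for the proteasome, against 0.05 over all features.

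The contigs most like each in pattern were found by Pearson r of log2(RPKM + 1) over the 9 libraries, among 10908 features with a mean of at least 10 RPKM. Libraries of a group share their origin, and the gap between SD and the rest carries much of r, so these values are descriptive. Among contigs of any name, Contig4724 was most like Contig18328 (r = 0.98), Contig34072 (0.98), Contig24649 (0.98), Contig57132 (0.98) and Contig25883 (0.97). The unnamed Contig25883 was the one nearest in size, at 4.64 to 7.02 RPKM in SD, 98.0 and 179 RPKM in SCN and 120.4 to 212 RPKM in hybrids. Among contigs with an informative name, the nearest were Contig24649 (failed axon), Contig2534 (0.96), Contig12058 (a probable mitochondrial methyltransferase, 0.95), Contig25025 (a fucosyltransferase, 0.94) and Contig4801 (GTP cyclohydrolase I, the first enzyme of tetrahydrobiopterin synthesis, 0.94). Contig4801 was at 29.3 to 55.2 RPKM in SD, 166 and 213 RPKM in SCN and 107 to 195 RPKM in hybrids.

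The ubiquitin contig was most like Contig2534 (r = 0.97), Contig21010 (an ectonucleoside triphosphate diphosphohydrolase, 0.97), Contig15713 (0.96), Contig41114 (0.96) and Contig97627 (0.96). Contig2534 was at 15.5 to 18.0 RPKM in SD, 72.9 and 75.8 RPKM in SCN and 45.6 to 64.8 RPKM in hybrids. The next contigs with an informative name were Contig11224 (UDP-glucose 4-epimerase, an enzyme of galactose metabolism, 0.95), Contig3095 (named after an adipocyte plasma membrane-associated protein, 0.94) and Contig18652 (ion transport peptide 2, 0.94). The ubiquitin contig and Contig4724 had an r of 0.94 with each other.

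Markers of stage and tissue were read beside these results, since the pools mixed stages and sexes. Summed RPKM of 85 cuticle and chitin contigs was 10815 to 26572 in SD, 10875 to 22717 in SCN, 29346 to 39271 in SDf x SCNm and 48163 to 52999 in SCNf x SDm. The 14 germline contigs summed to 2731 to 3370 RPKM in SD, 1734 to 2391 in SCN, 1954 to 2025 in SDf x SCNm and 1400.4 to 1592 in SCNf x SDm, so SD was highest without overlap. The 5 yolk contigs summed to 11422 to 33843 RPKM for SD, 3600 to 35592 for SCN and 26145 to 38860 for hybrids. The 30 muscle contigs summed to 7749 to 9759 RPKM for SD, 6780 to 11870 for SCN and 6732 to 9316 for hybrids, and the 9 sperm and cilia contigs to 58.5 to 85.3, 43.5 to 63.9 and 60.6 to 69.1. Between the crosses, SCNf x SDm sums were higher without overlap in cuticle and muscle and lower in germline and in sperm and cilia. Yolk sums overlapped. Over all features, SDf x SCNm lay below SCNf x SDm without overlap in 12.5%. The added constant keeps every deposited value above 0, so whether a marker was absent from a library was not examined. The part of stage and tissue makeup in the levels of either contig was not tested.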

How the data were processed

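The authors deposited 1 table per library with RPKM values, per the file headers, for 13758 features. Neither the aligner nor the counting method nor the reference contigs are given in the sources used here. No contig identifier matched the Tcal_SD_v2.1 gene table, so names come from the deposited tables and no coordinates are given. Whole reads were recovered from the spacing of the RPKM values for 13651 features, and 99.98% of their values were within 0.05 of a whole read. Recovered depth was 0.751 to 13.6 M reads. The recovery served for depths, lengths, counting intervals and the values and alternative fits with the added constant taken off. No read carried a molecular identifier. The contigs and lists were chosen with earlier results of these data known.

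limma (version 3.58.1, R 4.3.3) was fitted to log2(RPKM + 1) with a mean-variance trend, with 4 group means over all 9 libraries, and p-values were adjusted by Benjamini-Hochberg over all features with a threshold of 0.05. Differences on that scale understate changes of low features. A minimum mean of 1 RPKM removed 0 features. The fit and the recovery of reads were tested on simulated data. The named genes were both contigs, the 5 contigs most like each with any name and the 5 with an informative name, all members of the ubiquitin and oxidoreductase lists, the largest and the smallest difference in the other lists, and the next 3 named contigs lower in SD. Lists matched words in the protein names. Placeholder names were set apart after values had been seen. Alternatives covered the pseudocount, scaling, the added constant, the midparent, blocks and single libraries.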

Additional observations from a re-analysis of the deposited data

How the results depend on the processing

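For Contig4724, hybrids minus midparent stayed above 0 under all 20 alternatives and passed the threshold under 13. Leaving out single libraries gave 1.87 to 2.26, and the mean of RPKM values as midparent gave 0.49. SCNf x SDm minus midparent passed with a pseudocount of 5 (2.27), quantile normalization (2.40), the replicate block (2.42) and without both run 3 libraries (2.61), an alternative chosen after seeing the data, and ranged from 2.27 to 2.66 without single libraries. SDf x SCNm minus midparent ranged from 1.47 to 1.86 without them. For Contig1785 the corresponding range for hybrids was 0.58 to 0.82, and the mean of RPKM values turned the sign, to -0.31 for hybrids, -0.41 for SDf x SCNm and -0.21 for SCNf x SDm. SD minus SCN moved, for Contig4724, to -5.53 within run 3 and -4.47 without run 3, and for Contig1785 to -4.20 within run 1, -3.08 within run 3 and -4.25 without run 3. SDf x SCNm minus SCNf x SDm kept its direction and missed the threshold under all 22 alternatives for both contigs. That estimate uses hybrid libraries only. Leaving out parental libraries or groups, the filters, the trend and the replicate blocks cannot change it, so its direction there was fixed in advance.

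Counts of features past the threshold moved more. For hybrids minus midparent, 110 became 27 with the added constant taken off, 55 with the replicate block, 1207 with the mean of RPKM values, 170 with quantile normalization, 193 with a pseudocount of 5 and 0 to 2985 without single libraries. For SCNf x SDm minus midparent, 1 became 0 with the constant taken off, 83 with the mean of RPKM values, 31 with median-of-ratios scaling, 0 with no trend, 2 with only the groups compared, 57 with quantile normalization, 60 with a pseudocount of 5, 101 with the replicate block, 90 without run 3 and 0 to 1981 without single libraries. For SDf x SCNm minus midparent the range was 0 to 905. For SD minus SCN, 59 became 7 with only the groups compared, 95 with quantile normalization, 90 with the replicate block, 157 with run as a block, and 11 to 3085 without single libraries. The cause of these moves was not tested. Where a group kept 1 library, that library was assumed to vary like the others.

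The labels give replicate numbers no shared origin, and deviations of same-numbered libraries correlated with mixed signs, so the numbers were not taken to pair the samples. For replicates 1 and 2 the correlations were 0.23 and -0.18 between SD and SCN, 0.11 and 0.34 between SD and SDf x SCNm, and 0.0065 and -0.28 between SD and SCNf x SDm. Between groups of 2, where both numbers give the same value, they were -0.30 for SCN and SDf x SCNm, 0.36 for SCN and SCNf x SDm, and -0.55 for the crosses. The replicate block left 0 calls between the crosses, and a crossed block, chosen after seeing the data, gave 41. Restricting the fit to the groups compared was not run for hybrids minus midparent, which uses all groups. In SD replicate 3 only 6 and 7 reads stand behind Contig4724 and Contig1785, and SD minus SCN for Contig4724 was -4.86 without that library.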

Other observations

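The ratio of the ubiquitin contig to the oxidoreductase contig was taken within each library. Contig1785 over Contig4724, in RPKM, was 5.19, 2.48 and 7.10 in SD, 2.91 and 1.21 in SCN, 1.53 and 1.19 in SDf x SCNm and 1.05 and 0.749 in SCNf x SDm. The parents overlapped in this ratio, and all SD libraries lay above all hybrid libraries.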
